A study of Mus musculus with 12 samples.

Results

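Rpap3, Slc48a1, Hdac7, Lima1 and Tmprss12 are 5 genes of mouse chromosome 15 that lie near Vdr, the vitamin D receptor gene that was inactivated in the knockout mice of this study. They were chosen by their measured levels: within 100 measured genes on each side of Vdr, these are the genes whose 6 knockout arrays did not overlap their 6 wild-type arrays. They are 5 of the 24245 genes tested, and each is measured by 1 probe. Because the separation of the genotypes chose them, their genotype differences are described below without a test. The question behind the choice is whether such differences go with the loss of the receptor or with the DNA that surrounds the targeted gene.

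The vitamin D receptor is a nuclear receptor that binds calcitriol, the active hormone form of vitamin D, pairs with a retinoid X receptor and binds DNA at pairs of short half-sites. In the intestine it is known for its control of calcium uptake and of vitamin D breakdown. A gene inactivated by targeting in embryonic stem cells travels through breeding together with the stretch of chromosome around it. That stretch can keep the sequence of the stem cells' strain after the line has been crossed to another strain, and its genes are then often called passenger genes. The labels give C57BL/6 as the strain of both genotypes, and the stem cells in which the gene was targeted are not given in the sources used here. Every knockout culture carries both the inactivated receptor and whatever DNA lies beside it, so receptor loss and flanking DNA cannot be told apart by this design.

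The samples were colon organoids, three-dimensional epithelial cultures enriched in stem cells and grown in Matrigel from the crypts of 3 wild-type and 3 VDR KO mice, 2 or 3 months old. Each mouse's culture was given ethanol vehicle or 1,25(OH)2D3 (calcitriol) at 100 nM, renewed every 48 h, which made 4 groups of 3 one-colour arrays, with the same 3 mice of a genotype under both treatments. The treatment lasted 72 h by the series' design text and 62 h by the sample descriptions. Wild-type and knockout mice that carry the same replicate number share their labelled sex and age.

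Levels are log2 processed signals minus the 75th percentile of the same array, so 0 is the array's 75th percentile and a difference of 1 is a 2-fold difference. The 75th percentile signal lay between 491 and 680 in the 12 arrays, and 55.0% to 72.8% of spots were well above background. The highest share belonged to the vehicle array of wild-type mouse 2, which stood apart from the other 11, at 66.4% or less. The number of arrays limits the precision. All 12 arrays detected the 8 epithelial and 5 crypt stem cell markers well above background. Of the 6 fibroblast markers Vim was above background on 12 arrays, Col1a2 on 11, Col1a1 on 7, Col3a1 on 6, Dcn on 1 and Pdgfra on 0. Of the 4 endothelial markers Pecam1, Kdr and Vwf were above it on 12 arrays and Cdh5 on 1. Of the immune markers reported here, Itgam, Cd3e and Csf1r were above it on 12 arrays, Ptprc on 6 and Lyz2 on 3. The summed fibroblast markers lay between -2.01 and -0.60 in wild type and between -2.14 and -1.45 in knockout, and the endothelial ones between 2.43 and 3.10 and between 2.26 and 3.37. The genotypes overlapped in both sums, and the part of other cell types in the results was not tested. In both genotypes the arrays of mouse 2, labelled female, had Ddx3y, a Y-linked gene, at 0.82 to 0.99, and the other 8 arrays, which include those of mouse 1, labelled male, had it at -7.96 to -6.62. The sex labels of mice 1 and 2 are therefore contradicted alike in both genotypes.

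Because the loss of a DNA-binding receptor is one side of the question, the sequences before the genes' starts are shown with the receptor's half-sites in capitals. They are the 250 bases before the start in RefSeq's GRCm38.p6 annotation, 5′ to 3′ on the gene's own strand, and 4 of the 5 genes have an entry. The letters searched on both strands were AGGTCA, its variant GGGTCA, and likewise AGTTCA and GGTTCA. For Hdac7, the 1 of 4 listed starts that holds a half-site is printed.
Rpap3: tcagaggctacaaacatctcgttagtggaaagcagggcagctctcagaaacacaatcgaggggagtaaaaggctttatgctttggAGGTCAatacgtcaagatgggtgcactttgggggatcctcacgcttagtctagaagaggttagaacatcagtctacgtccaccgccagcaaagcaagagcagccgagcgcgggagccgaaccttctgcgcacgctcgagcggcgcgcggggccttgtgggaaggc
Hdac7: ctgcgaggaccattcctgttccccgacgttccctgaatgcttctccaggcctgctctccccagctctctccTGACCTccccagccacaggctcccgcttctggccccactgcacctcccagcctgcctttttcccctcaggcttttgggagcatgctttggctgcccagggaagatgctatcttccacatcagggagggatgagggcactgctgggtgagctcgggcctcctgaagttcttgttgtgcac
Lima1: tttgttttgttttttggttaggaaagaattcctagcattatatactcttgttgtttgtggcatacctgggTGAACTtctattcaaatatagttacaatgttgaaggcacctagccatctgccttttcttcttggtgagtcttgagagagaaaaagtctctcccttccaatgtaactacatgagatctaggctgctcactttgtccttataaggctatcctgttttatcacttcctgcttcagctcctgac
Tmprss12: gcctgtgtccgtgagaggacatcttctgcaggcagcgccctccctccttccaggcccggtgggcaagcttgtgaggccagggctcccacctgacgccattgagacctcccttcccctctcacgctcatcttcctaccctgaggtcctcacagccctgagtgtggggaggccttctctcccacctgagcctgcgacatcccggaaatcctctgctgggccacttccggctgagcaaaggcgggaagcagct
Rpap3, on the minus strand, holds 1 half-site, 165 bases before its start. Hdac7 and Lima1, also on the minus strand, hold 1 each, at 179 and 180 bases, and Tmprss12, on the plus strand, holds none of these letters. In all, 3 of the 7 windows of these genes hold a half-site, against 38.6% of 32851 windows of the same length in the genome. The paired arrangement of the receptor, 2 half-sites in the same direction separated by NNN, is in 0 of the 7 windows and in 0.0396% of all windows. A match is a description of the letters and not a bound site, and a missing match concerns this window alone.

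Vdr itself was lower in the knockout arrays. Its level in wild-type mice 1, 2 and 3 was 1.37, 1.90 and 2.22 under vehicle and 1.29, 1.06 and 1.41 under calcitriol. In knockout mice it was -0.10, 0.34 and 0.48 under vehicle and -0.22, 0.04 and 0.61 under calcitriol, and it was well above background on all 12 arrays. The genotypes did not overlap, and knockout minus wild type was -1.59 under vehicle and -1.11 under calcitriol. Neither difference passed limma's test over all 24245 genes (adjusted p = 0.329 and 0.250), and both passed when replicate numbers were fitted as blocks (adjusted p = 0.0137 and 0.0079). Between genotypes these blocks join different mice of the same number, and they do not model that arrays share a mouse. The sources used here do not give which part of Vdr was removed, so it is not known whether the probe tests the deletion.

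**Figure D1:**
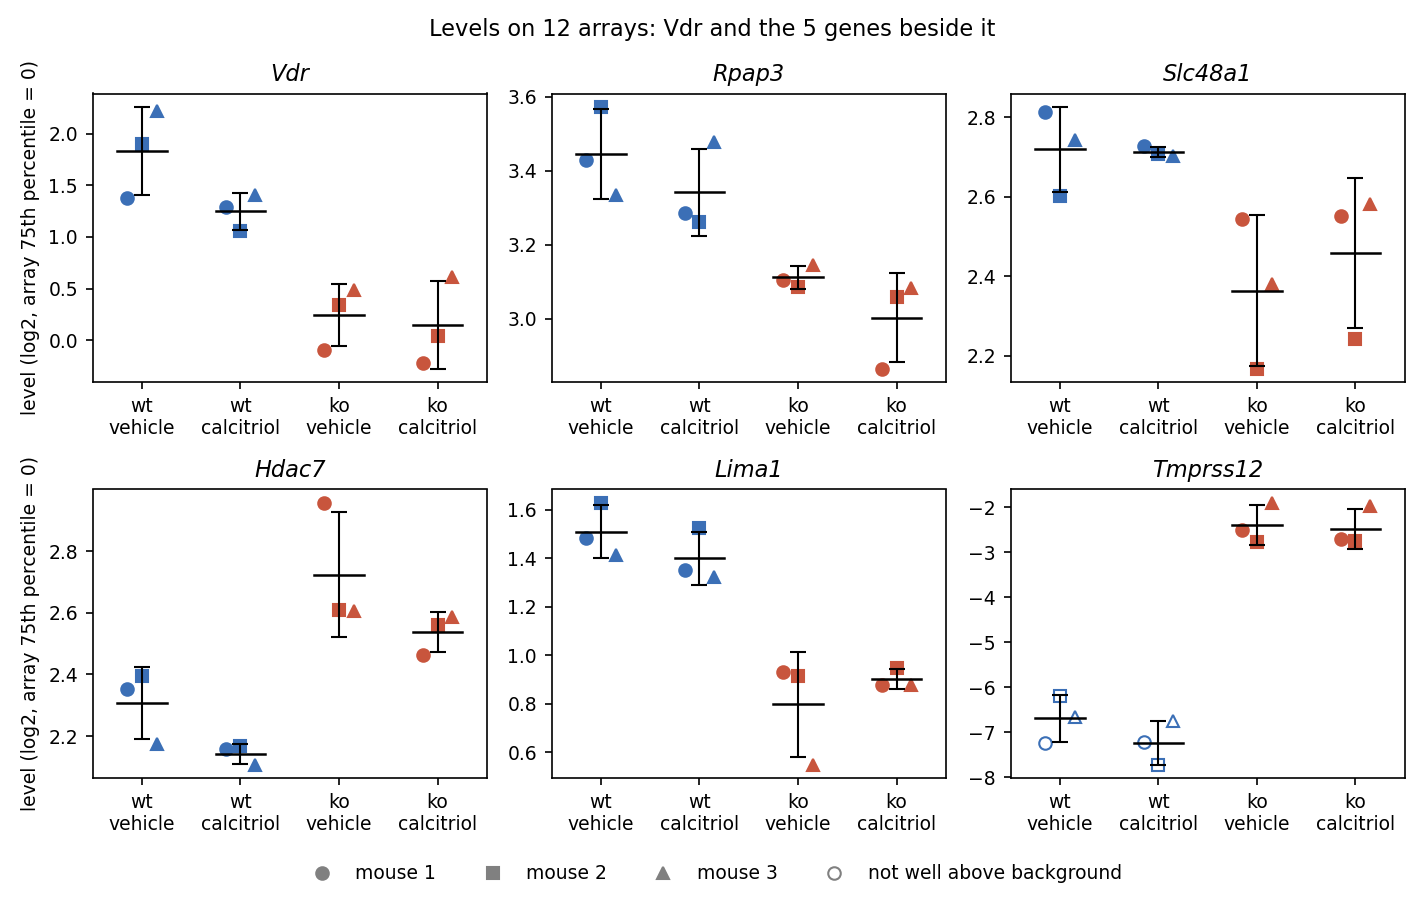
Levels of Vdr and the 5 genes (y axis, log2 with the array's 75th percentile at 0; each panel has its own range) in the 4 groups (x axis). Points are arrays, shaped by mouse, bars are the mean ± SD of 3 arrays, and open points are not well above background; in each panel the 6 red knockout points lie wholly on one side of the 6 blue wild-type points, which holds at this scaling and is lost for all but Tmprss12 when arrays are scaled to their median.

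Tmprss12, a membrane-bound serine protease known from the testis and sperm, was detected on the knockout arrays and not on the wild-type ones. Its level in wild-type mice 1, 2 and 3 was -7.24, -6.20 and -6.65 under vehicle and -7.23, -7.73 and -6.76 under calcitriol. In knockout mice it was -2.51, -2.77 and -1.90 under vehicle and -2.70, -2.76 and -1.97 under calcitriol. As processed signal, the wild-type arrays read 2.81 to 7.59 and the knockout arrays 72.1 to 168. The probe was not well above background on any of the 6 wild-type arrays and was above it on all 6 knockout arrays, so the gene entered the tested set through the knockout groups alone.

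The wild-type level of Tmprss12 is a bound, so the knockout level was at least 4.81-fold higher under vehicle and at least 9.18-fold higher under calcitriol. These bounds set the mean of the 3 knockout arrays against, for each wild-type array, the lowest signal that was well above background there. The measured means under vehicle were -6.70 ± 0.52 in wild type and -2.39 ± 0.45 in knockout, and under calcitriol -7.24 ± 0.49 and -2.48 ± 0.44 (SD, n = 3 each). Their differences, 4.30 and 4.76, rest on wild-type signals at background and have no exact size. With normexp background correction, which adds an offset of 50 to every spot, they were 1.37 and 1.41, in the same direction.

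Lima1 encodes a LIM-domain protein, also called EPLIN, that cross-links and stabilises actin filaments, and it is known to take part in intestinal cholesterol uptake with Npc1l1. Wild-type mice 1, 2 and 3 had levels of 1.49, 1.63 and 1.42 under vehicle and 1.35, 1.53 and 1.32 under calcitriol. The knockout mice had 0.93, 0.91 and 0.55 under vehicle and 0.88, 0.95 and 0.88 under calcitriol. All 12 arrays detected it, every knockout array was below every wild-type array, and the gap between them was 0.37. The mean was 1.51 ± 0.11 in wild type and 0.80 ± 0.22 in knockout under vehicle (SD, n = 3 each), a difference of -0.71, or 1.64-fold. Under calcitriol it was 1.40 ± 0.11 against 0.90 ± 0.042 (SD, n = 3 each), a difference of -0.50, or 1.41-fold. In cultures of mixed cells, fewer cells that make a transcript and less of it per cell cannot be told apart, here and for the genes that follow.

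Rpap3 encodes a co-chaperone of the R2TP complex, which works with HSP90 in assembling RNA polymerases and other large complexes. It had the highest level of the 5 probes, though levels of different probes are not comparable. In wild-type mice 1, 2 and 3 it was 3.43, 3.57 and 3.33 under vehicle and 3.29, 3.26 and 3.48 under calcitriol. In knockout mice it was 3.10, 3.09 and 3.15 under vehicle and 2.86, 3.06 and 3.08 under calcitriol. The lowest wild-type array was 0.11 above the highest knockout array. The mean difference was -0.33 under vehicle (3.45 ± 0.12 and 3.11 ± 0.031, SD, n = 3 each) and -0.34 under calcitriol (3.34 ± 0.12 and 3.00 ± 0.12, SD, n = 3 each), 1.26-fold under both.

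Slc48a1 encodes a heme transporter, HRG1, that moves heme out of endosomes and lysosomes. In wild-type mice 1, 2 and 3 its level was 2.81, 2.60 and 2.74 under vehicle and 2.73, 2.71 and 2.70 under calcitriol. Knockout mice 1, 2 and 3 had 2.54, 2.17 and 2.38 under vehicle and 2.55, 2.24 and 2.58 under calcitriol. The knockout arrays were lower and more spread than the wild-type ones, and the genotypes came within 0.020 of each other. The mean difference was -0.36 under vehicle (2.72 ± 0.11 and 2.36 ± 0.19, SD, n = 3 each) and -0.25 under calcitriol (2.71 ± 0.013 and 2.46 ± 0.19, SD, n = 3 each), or 1.28-fold and 1.19-fold.

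Hdac7 encodes a class IIa histone deacetylase, a corepressor that shuttles between nucleus and cytoplasm, and it was higher in knockout arrays. Its level in wild-type mice 1, 2 and 3 was 2.35, 2.39 and 2.17 under vehicle and 2.16, 2.17 and 2.11 under calcitriol. The knockout levels were 2.96, 2.61 and 2.60 under vehicle and 2.46, 2.56 and 2.59 under calcitriol. The gap was 0.069, and knockout mouse 1 under vehicle was the highest array. The mean difference was 0.42 under vehicle (2.31 ± 0.12 and 2.72 ± 0.20, SD, n = 3 each) and 0.39 under calcitriol (2.14 ± 0.032 and 2.54 ± 0.066, SD, n = 3 each), or 1.34-fold and 1.31-fold. Hdac7 and Slc48a1 are next to each other, their gene models overlap in the annotation, and they differed in opposite directions.

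Of the 5 genes, 2 were thus higher and 3 lower in knockout organoids, with sizes from 1.19-fold to the bounded difference of Tmprss12. Over all genes tested, 0.400% did not overlap between the genotypes on the 12 arrays, 0.214% with the knockout higher and 0.186% with it lower. With 3 arrays against 3, 8.41% did not overlap under vehicle and 7.61% under calcitriol. Since the separation chose the 5 genes, nothing is read from their count against these shares. Genotype and slide were partly mixed under vehicle, since slide 1 held 2 of the 3 knockout vehicle arrays and no others, and slide 2 held 2 of the 3 wild-type vehicle arrays. With slide as a block, knockout minus wild type under vehicle was -0.93 for Lima1, -0.20 for Rpap3, -0.29 for Slc48a1 and 0.39 for Hdac7. Under calcitriol, where all 3 wild-type and 2 of the 3 knockout arrays shared slide 3, it was -0.52, -0.39, -0.28 and 0.35. Vdr was -1.31 and -1.12 with that block. Slide 1 held no other arrays, so under vehicle the knockout side of this fit rests on 1 array, that of mouse 3. The 4 genes kept their directions with slide in the fit, which under vehicle does not show that slide played no part.

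The direction of 3 of these differences depends on the scaling. Scaling each array to its median in place of its 75th percentile moved the median knockout-minus-wild-type difference of all genes under vehicle by 0.78, from -0.05 to 0.73. On that scale Lima1, Slc48a1 and Rpap3 were higher in knockout under vehicle, by 0.07, 0.42 and 0.45, and Tmprss12 alone separated the genotypes on 12 arrays. Relative to the median of all genes, the differences under vehicle were -0.67 for Lima1, -0.31 for Slc48a1, -0.29 for Rpap3 and 0.46 for Hdac7. These values are the same under both scalings by construction, since the scalings differ by a constant per array. They are therefore no check of the directions. Under calcitriol the directions were the same under both scalings. Under quantile normalization and normexp background correction all 5 kept their direction and their separation.

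The 5 genes fall into 2 places along the chromosome. Rpap3, Slc48a1 and Hdac7 lie on one side of Vdr, as the 4th, 2nd and nearest measured gene, and Lima1 and Tmprss12 lie on the other side, as the 46th and 51st. The order is that of RefSeq's GRCm38.p6 table, and since the array was designed on mm9 no coordinates are given. Counting every gene of the table, Hdac7 is 3 genes from Vdr, Slc48a1 4, Rpap3 10, Lima1 103 and Tmprss12 118. The span from Rpap3 to Tmprss12 holds 129 table genes, of which 75 code for proteins and 56 were tested.

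Of the 56 tested genes of this span, 50 are neither Vdr nor one of the 5, and 45 tested genes lie between Vdr and Lima1. That 0 of these, and 0 of the 195 others within 100 measured genes on each side, separated the genotypes is fixed by the way the 5 were chosen. Counting the 5, the shares without overlap were 3 of 20 genes within 10 on each side of Vdr, 3 of 50 within 25, 4 of 100 within 50 and 5 of 200 within 100. Over all genes tested the share was 0.400%. The 5 were chosen for not overlapping within this range, so nothing is read from these shares or from setting them against other regions. Beyond 100 measured genes, 4 of the other 405 genes tested on the chromosome did not overlap (0.988%), and the 19 other chromosomes had 0% to 0.837%. Those 4 were Cthrc1, Gsdmc4, Apol7b and Rbx1, the nearest of them, Rbx1, 134 measured genes from Vdr.

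**Figure D2:**
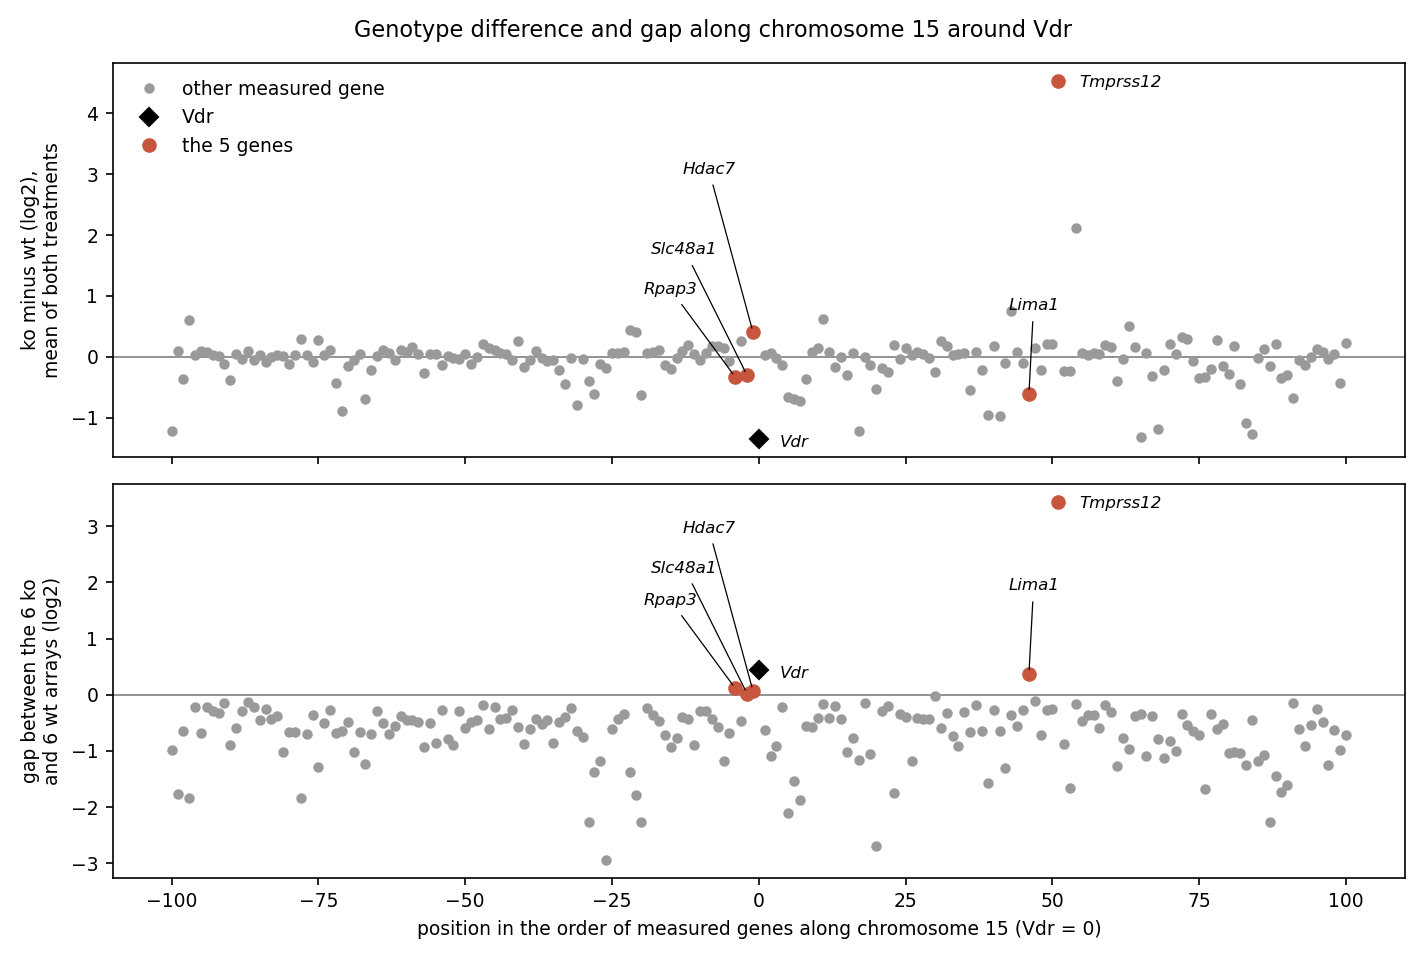
Measured genes of chromosome 15 in order, within 100 on each side of Vdr (x axis, position with Vdr at 0). The upper panel shows knockout minus wild type (log2, mean of both treatments; for Lima1, Slc48a1 and Rpap3 the vehicle direction turns when arrays are scaled to their median) and the lower panel the gap between the 6 knockout and 6 wild-type arrays, above 0 where they do not overlap; Vdr and the 5 genes are the points above 0, and the grey point near Tmprss12 at a difference of 2.11 is Methig1. The wild-type levels of Tmprss12 are at background, so its height has no exact size.

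The genes closest to Vdr show how interspersed the separating genes are. Rapgef3, a cAMP-activated exchange factor for Rap proteins, lies between Rpap3 and Slc48a1, and its difference was 0.36 under vehicle and 0.16 under calcitriol with overlapping arrays. On the outer side of Rpap3, Pced1b, Slc38a2, Slc38a1, Scaf11, Arid2 and Ano6 all overlapped, with differences from -0.17 to 0.20 over both treatments. On the other side of Vdr, Tmem106c, Senp1, Pfkm, Asb8, Kansl2 and Ccnt1 overlapped, with differences from -0.27 to 0.20. Olfr283, Olfr282, Olfr281 and Lalba, receptor genes of smell and a milk protein gene, were dimmer and varied more, with differences of -2.13 for Olfr281 to -0.58 for Lalba under vehicle and of -0.14 for Lalba to 0.68 for Olfr281 under calcitriol. None of these 17 genes passed limma's test in either treatment.

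The fit over all genes is given for the 195 others as a description, since they are what was left once the separating genes were taken out. Of these, 0 passed limma's test at an adjusted p under 0.05 in either treatment. The background was 0.00412% of genes called under vehicle, which is 1 gene, and 0.206% under calcitriol. The 1 gene under vehicle was Tmprss12, itself among the 5 chosen, so no gene outside the 5 was called there. It is also among those called under calcitriol. As the choice favoured Tmprss12, nothing is read from its calls. At an unadjusted p under 0.05 there were 17 of 195 under vehicle (8.72%) and 5 of 195 under calcitriol (2.56%). Counting the 5 chosen genes, there were 22 of 200 and 9 of 200, against 8.65% and 2.99% of all genes. As the choice removed genes from the first set and added them to the second, nothing is read from these shares. The block for the replicate number joins different mice across genotypes and does not model that arrays share a mouse. With it, 0 of the 195 passed under vehicle, where 0.0165% of all genes did, and 3 under calcitriol, where 1.01% did. These were Cyp2d26, a cytochrome P450 gene 97 genes away (3.14 in wild type and 4.19 in knockout, adjusted p = 0.00327), Gpd1, a glycerol-3-phosphate dehydrogenase gene 43 genes away on the side of Lima1 (1.35 and 2.13, adjusted p = 0.0223), and Krt4, a keratin gene 91 genes away (3.22 and 2.23, adjusted p = 0.0445).

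At the edge of the choice, Slc48a1 was just inside with its gap of 0.020. Spats2, 30 measured genes from Vdr on the side of Lima1, was just outside, with arrays that overlapped by 0.020 and differences of -0.29 and -0.21. Larp4, beside Lima1, followed with an overlap of 0.11, and then Pacsin2, 87 genes away, with 0.14.

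Methig1, just beyond Tmprss12 and 54 measured genes from Vdr, was looked at after its values were seen, because it separated the genotypes under median scaling and under quantile normalization. Its level in wild-type mice 1, 2 and 3 was -6.42, -3.59 and -6.38 under vehicle and -6.97, -5.66 and -5.31 under calcitriol. The knockout levels were -3.50, -3.61 and -3.64 under vehicle and -3.37, -3.75 and -3.75 under calcitriol. It was well above background on 6 of 6 knockout arrays and on 1 of 6 wild-type arrays, the vehicle array of mouse 2, which is also the array with the highest share of spots above background. Under calcitriol, where 0 of 3 wild-type arrays detected it, the knockout level was at least 3.85-fold higher. It did not pass limma's test under vehicle (1.88, adjusted p = 0.568) or calcitriol (2.35, adjusted p = 0.682). Without that array, the genotypes did not overlap for Methig1, Gpd1 and Krt4, and 0.610% of all genes then did not overlap. Higd1c, a dim gene of the same stretch that is not in the tested set, was above background on 2 knockout arrays and on 0 wild-type arrays.

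The genes elsewhere in the genome whose levels ran most like those of the 5 were found among 14904 genes with a symbol, by Pearson's r over the 12 arrays. These values describe arrays that share mice, slides and genotypes. The 5 were chosen for separating the genotypes, so genes that differ by genotype rank high beside them. Those of Tmprss12 also rest on wild-type signals at background. For Tmprss12 they were Penk (r = 0.91), Hspa4l (0.85) and Rbm12b2 (0.85), and for Lima1 they were Tmem150a (0.94), Ttyh2 (0.92) and Aldh7a1 (0.89). For Hdac7 they were Nab2 (0.92), Pum2 (0.92) and Tnks2 (0.91), for Slc48a1 they were Slc7a4 (0.91), Ninj2 (0.90) and Smpd2 (0.90), and for Rpap3 they were Flt3l (0.92), Ttc8 (0.89) and Sfi1 (0.88). None of these genes lies on chromosome 15. Penk, Hspa4l, Tmem150a, Aldh7a1, Flt3l, Ttc8 and Sfi1 also separated the genotypes on the 12 arrays, and the others overlapped.

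The pathway partners of the 5 genes were looked at by function lists that leave the 5 out. In knockout against wild type, 0 genes of any list passed limma's test in either direction, under vehicle or calcitriol. For the class IIa deacetylases and their corepressor and MEF2 partners, 15 of 18 listed genes were tested, and their median difference was 0.15 under vehicle and 0.09 under calcitriol, against -0.05 and 0.02 for all genes. Tbl1xr1, a subunit of the corepressor complex, was 0.31 higher under vehicle (adjusted p = 0.574). For the R2TP complex and RNA polymerase assembly, 23 of 23 were tested, with medians of 0.01 and 0.05. Uri1, a prefoldin-like partner of the complex, was 0.36 higher under vehicle (adjusted p = 0.568).

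For heme and iron handling, 23 of 23 genes were tested, with medians of -0.00 and 0.02. Flvcr2, a heme-binding transporter relative, read -0.57 under vehicle and -0.69 under calcitriol (adjusted p = 0.614 and 1.00). The others of the 4 genes with the smallest p went both ways. Under vehicle Fth1 (0.24) and Ftl1 (0.36) were higher and Slc46a1 (-0.34) lower. Under calcitriol Abcb6 (0.39) and Hmox1 (0.44) were higher and Urod (-0.19) lower. For actin bundling and the brush border, 18 of 19 were tested, with medians of 0.12 and 0.05. Npc1l1, the intestinal cholesterol transporter, read -1.40 under vehicle (SE 0.48, adjusted p = 0.568). Next by p under vehicle, Vcl (0.32) and Myo5b (0.23) were higher and Ablim3 (-0.70) lower. Under calcitriol the 4 genes with the smallest p were all higher: Ctnna1 (0.19), Espn (1.04), Zyx (0.38) and Myo5b (0.19). For the transmembrane serine proteases, 10 of 15 were tested, with medians of -0.11 and 0.04. Tmprss6, which also lies on chromosome 15, read -0.91 and -0.71 (adjusted p = 0.678 and 1.00). Between 0 and 2 genes of a list had an unadjusted p under 0.05 in any of these comparisons.

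No calcitriol effect was detected on these genes. Treatment and slide were partly mixed. Slide 3 held all 3 wild-type calcitriol arrays and 1 wild-type vehicle array, and slide 2 held the other 2 wild-type vehicle arrays. Slide 1 held 2 of the 3 knockout vehicle arrays and no calcitriol array. Calcitriol and slide are therefore not fully separated in the effects below, nor in the differences of single mice. The choice did not compare treatments, but it asked that the genotypes not overlap across both, which limits how far a level could move within a genotype. Tmprss12 was not well above background in either wild-type group, so it is left out in wild type and for the difference of effects. In wild-type organoids, where 0.157% of all genes passed limma's test, 0 of the other 4 passed, and 0 had an unadjusted p under 0.05 (lowest adjusted p = 0.995). In knockout organoids 0 of the 5 passed, as did 0 of all genes, and again 0 had an unadjusted p under 0.05 (lowest adjusted p = 0.922). The difference of the calcitriol effects between genotypes passed for 0 of the 4, with 0 at an unadjusted p under 0.05, and for 0.0289% of all genes (adjusted p = 1.00 for each). With a block for the replicate number, 0 of these genes passed in each of the 3 comparisons, against 0.936% of all genes in wild type, 0 in knockout and 0.235% for the difference. A fit to every one of the 33410 probes tested also passed 0 of them in each, against 0.159%, 0 and 0.0449% of probes.

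In wild type, calcitriol minus vehicle was -0.16 for Hdac7, with a 95% interval from -0.44 to 0.12. It was -0.11 for Lima1 (-0.42 to 0.20), -0.10 for Rpap3 (-0.36 to 0.15) and -0.01 for Slc48a1 (-0.30 to 0.29). Hdac7 and Lima1 were lower with calcitriol in 3 of 3 wild-type mice, by at most 0.23 and 0.14.

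In knockout, the differences were -0.19 for Hdac7 (-0.46 to 0.09), 0.10 for Lima1 (-0.20 to 0.41), -0.11 for Rpap3 (-0.36 to 0.14), 0.10 for Slc48a1 (-0.20 to 0.39) and -0.09 for Tmprss12 (-1.05 to 0.88). Hdac7 and Rpap3 were lower in 3 of 3 knockout mice and Slc48a1 higher in 3 of 3, while Lima1 and Tmprss12 went both ways. In this fit, which leaves slide out, the intervals of the 4 genes detected on all arrays reach no further than 0.46 from 0 (log2). With slide as a block the effects on the 4 ran from -0.07 to 0.04 in wild type and from -0.19 to 0.34 in knockout. With median scaling they ran from 0.35 to 0.50 in wild type and from -0.47 to -0.18 in knockout. The reach of 0.46 thus holds for this fit and scaling only, and it does not show that calcitriol had no effect.

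**Figure D3:**
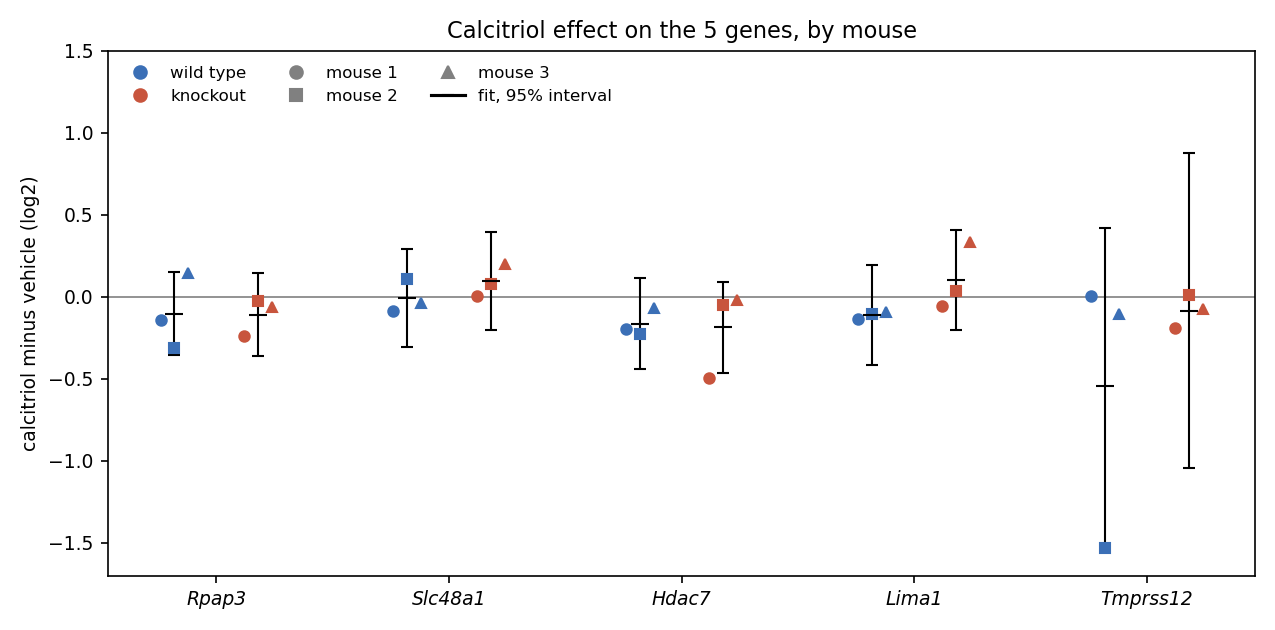
Calcitriol minus vehicle (y axis, log2) for the 5 genes (x axis), in wild-type (blue) and knockout (red) organoids. Except for wild-type mouse 3, the vehicle and calcitriol arrays of each mouse were on different slides. Points are single mice and black bars the fitted effect of 3 mice with its 95% interval; every interval holds 0, and the widest are those of Tmprss12, whose wild-type points come from arrays where it was not well above background, mouse 2 at -1.53 among them.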

How the data were processed

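Total RNA of 12 cultures was labelled from 100 ng with Cy3 and hybridised to 1 array each. The deposited intensity values are processed signals that the authors obtained with Agilent Feature Extraction 11.5.1.1, per the file headers, background-subtracted and not normalized between arrays; the array design names mm9. Control spots, outlier spots and 163 probes with missing values were left out. Spots of a probe were averaged, log2 was taken and each array's 75th percentile over probes subtracted. Probes were kept where 1 or more groups had all 3 arrays well above background (33410 of 55681), and the brightest stood for a gene (24245); 28026 probes were named through RefSeq accessions. The 4 group means were fitted with limma 3.58.1 in R 4.3.3 (eBayes with trend, 2-sided, Benjamini-Hochberg adjustment, threshold 0.05), a script tested on simulated data. Deviations of arrays of the same mouse correlated at 0.10 to 0.59, and of arrays of the same number across genotypes, which are different mice, at 0.13 to 0.64. Arrays of different numbers were not compared, so these values do not test whether the number pairs the arrays.

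The 5 genes, the function and marker lists and the comparisons were chosen with earlier results of these data known. Named genes are the 5, Vdr, the 10 nearest measured genes on each side, separating and nearly separating neighbours, the 3 genes most like each of the 5, and up to 4 per list by p. The alternatives were normexp background with an offset of 50, median and quantile scaling, no filter, every probe, replicate and slide blocks, fewer arrays and arrays left out. The result of 1 immune marker is not reported here.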

Additional observations from a re-analysis of the deposited data

How the results depend on the processing

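The calls on calcitriol were none of the 5 genes in knockout, and none in wild type and for the difference, where Tmprss12 is left out. These and the 0 calls in the function lists held under every alternative that gave a value. Many of the calcitriol effects lie near 0 and changed sign. Those of Tmprss12 in wild type and for the difference of effects rest on wild-type signals at background and have no readable sign. With arrays scaled to their median, calcitriol in wild type gave 0.40 for Lima1, 0.35 for Hdac7, 0.50 for Slc48a1 and 0.41 for Rpap3, in knockout -0.18 for Lima1 and -0.19 for Slc48a1, and for the difference of effects 0.34 for Tmprss12, 0.58 for Lima1 and 0.70 for Slc48a1; that scaling moved the median of all genes in wild type by 0.51. Quantile normalization gave 0.47 for Tmprss12 in wild type, and for the difference of effects 0.70 for Tmprss12, -0.013 for Hdac7 and -0.043 for Rpap3. Slc48a1 in wild type was 0.044 with normexp and with slide as a block. The difference of effects for Tmprss12 was 0.39 with slide as a block and 0.25 on the largest slide, where Rpap3 in wild type was 0.0077. Leaving out arrays changed signs within -0.021 to 0.18 for Lima1, -0.0033 to 0.20 for Slc48a1 and -0.34 to 0.16 for Tmprss12 in knockout, -0.23 to 0.00048 for Rpap3 and -0.065 to 0.041 for Slc48a1 in wild type, and, for the difference of effects, -0.12 to 0.12 for Hdac7, -0.094 to 0.15 for Rpap3 and -0.79 to 0.082 for Tmprss12. The cause was not tested. The difference of effects could not be fitted on 6 arrays of one genotype, and on the largest slide the vehicle groups had 1 array each, assumed to vary like the other groups.

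Under vehicle, 2 of the 5 genes separated the genotypes with median scaling. With no filter on dim probes, 1 gene around Vdr did not overlap, Higd1c, which is not among the 195 others. Among those 195, the count without overlap was 1 with median scaling and 1 with quantile normalization (Methig1 in both). On the largest slide the count was 10, where fewer arrays raise the share of all genes to 4.35%. It ranged from 0 to 13 when arrays were left out: 2 (Fkbp11 and Slc4a8) without mouse 1's wild-type vehicle array, 3 without mouse 2's, 1 (4930415O20Rik) without mouse 2's knockout vehicle array, 1 (Spats2) without mouse 3's knockout calcitriol array, and 13, 8 and 2 without all arrays numbered 1, 2 or 3, when 5.72%, 4.04% and 1.69% of all genes did not overlap. With the replicate block, Vdr (-1.59 and -1.11) and 3 of the neighbours under calcitriol passed; the block changed no other call of this report.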
